A study of Mus musculus with 4 samples.

Results

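The 10 genes described here belong to the pathway that shows peptides from inside a cell on MHC class I molecules. They are H2-K1, H2-D1 and B2m, which encode the chains of the class I molecule; Tap1, Tap2 and Tapbp, which carry peptides and load them; Psmb8, Psmb9 and Psmb10, the catalytic subunits of the immunoproteasome; and Nlrc5, a transactivator of class I genes. They were taken by symbol from a table of read counts for 54532 mouse genes, in which each symbol named 1 row. All 10 were among the 13233 genes with a mean of at least 1 CPM (counts scaled by library depth) over the 4 libraries, although Psmb8 reached that mean only through the OB-induced libraries and lay under 1 CPM in both others.

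The cells were C3H10T1/2, a line of mouse mesenchymal stem cells (MSCs) derived from C3H embryos. Transfection for 48 h was with an siRNA that targets DNMT1 or with a control siRNA. DNMT1 is the maintenance DNA methyltransferase, which keeps methylation marks through cell division. At the end poly(A) RNA was sequenced. The group called control had the control siRNA and no induction, siDNMT1 had the DNMT1 siRNA and no induction, OB had the control siRNA and 3 days of osteoblast induction, and siDNMT1_OB had the DNMT1 siRNA and the same induction. The induction medium held dexamethasone (0.001 µM), glycerophosphate (10 mM) and ascorbic acid (50 µM), so that OB against control compares cells with and without the whole mixture. Induction followed the transfection, and no uninduced library kept for those 3 days is described. Time in culture and the medium therefore cannot be told apart in the induction comparisons. Each group was 1 library, and every group was the same cell line, so a difference between groups has no replicate check.

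MHC class I molecules are made of a polymorphic heavy chain, which in mice is encoded by genes such as H2-K1 and H2-D1, and of the invariant light chain β2-microglobulin, encoded by B2m. Proteasomes cut cytosolic proteins into peptides, TAP1 and TAP2 form the transporter that moves these peptides into the endoplasmic reticulum, and tapasin (Tapbp) holds empty class I molecules beside the transporter. Interferons are textbook inducers of these genes, and in that setting PSMB8, PSMB9 and PSMB10 take the places of PSMB5, PSMB6 and PSMB7 in newly assembled proteasomes, while NLRC5 acts together with factors bound at conserved class I promoter elements.

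The sequences before the starts of H2-K1 and B2m are shown because they carry the promoter elements for which class I genes are known, and because these members differed in how the libraries were ordered. RefSeq promoters (build GRCm38.p6, 250 bases before to 50 bases after a start) were held for 8 of the 10 members, all but Tap2 and Nlrc5. Capitals mark matches on either strand to 5 motifs, namely the interferon-stimulated response element (ISRE, searched as GAAA, 2 free bases and GAAA), a shorter interferon regulatory factor (IRF) element (GAANNGAAA), an NF-kB site, the CRE half-site TGACG and the CCAAT box, which reads ATTGG on the opposite strand. The stretch of H2-K1 is chr17:34000348-34000547 on the minus strand, the 200 bases up to its outermost RefSeq start, and that of B2m is chr2:122147487-122147676 on the plus strand, from 200 to 11 bases before its start.
H2-K1: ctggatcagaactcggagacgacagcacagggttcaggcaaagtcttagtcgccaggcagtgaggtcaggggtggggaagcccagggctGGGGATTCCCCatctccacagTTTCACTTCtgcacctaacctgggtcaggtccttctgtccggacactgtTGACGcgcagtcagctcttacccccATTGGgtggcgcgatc
B2m: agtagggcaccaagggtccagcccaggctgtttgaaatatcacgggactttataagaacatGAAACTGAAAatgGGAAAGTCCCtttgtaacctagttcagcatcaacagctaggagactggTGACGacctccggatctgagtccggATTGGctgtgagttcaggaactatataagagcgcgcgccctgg
In both stretches the matches stand in the order NF-kB or interferon element, TGACG and CCAAT box, with the ISRE of B2m at 139 bases before the start and the IRF element of H2-K1 at 90. Both NF-kB matches of H2-K1 overlap each other by all but 1 base. Of 32851 RefSeq windows of 300 bases, 3.44% held the ISRE letters, 7.52% the IRF element, 8.46% the NF-kB site, 20.8% TGACG and 37.4% CCAAT, so the shorter motifs are common.

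H2-K1 and H2-D1 are paralogs, and their upstream sequences are alike around the NF-kB match. The 30 bases around the NF-kB match and the IRF element lie at chr17:34000429-34000458 (minus strand) for H2-K1 and at chr17:35262923-35262952 (plus strand) for H2-D1.
H2-K1: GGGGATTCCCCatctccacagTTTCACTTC
H2-D1: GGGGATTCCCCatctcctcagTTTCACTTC
These stretches share 29 of 30 bases, and 118 of 130 aligned bases (90.8%) around the NF-kB match are identical. Reads of such genes can fit more than 1 row of a count table, and C3H mice carry other H2 alleles than the reference strain, so the levels of H2-K1 and H2-D1, and of the other H2 class I genes, are uncertain. The transcript sequences of both genes were not compared, and what part this had in the values was not tested.

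Tap1 and Psmb9 are read outward from 1 shared promoter region, with 225 bases between their RefSeq starts. The CCAAT box and the TGACG match of this region are shown with their surroundings, both read along the strand of Tap1, at chr17:34187322-34187351 and chr17:34187458-34187487.
CCAAT box: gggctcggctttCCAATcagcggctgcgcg
TGACG match: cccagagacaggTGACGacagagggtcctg
The CCAAT match lay 222 bases before the start of Tap1 and the TGACG match 86 bases before it. The windows of Psmb8 and Psmb10 held none of the 5 motifs, which says only that these letters are not in those windows.

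Most members, 7 of 10, lie in the MHC region of chromosome 17. In the table's own coordinates (mm10) these are Tapbp (33915899 to 33929288), H2-K1 (33996017 to 34000333), Psmb9 (34181988 to 34187764), Tap1 (34187553 to 34197225), Psmb8 (34197721 to 34201454), Tap2 (34203527 to 34216321) and H2-D1 (35262730 to 35267499). B2m lies on chromosome 2 (122147686 to 122153083), and Nlrc5 (94434356 to 94527272) and Psmb10 (105935735 to 105938444) lie on chromosome 8. The rows of Tap1 and Psmb9 overlap by 212 bases on opposite strands and the library kit does not mark strand, so reads there cannot be told apart. The row of Tapbp overlaps Zbtb22 by 3421 bases on the same strand, and Zbtb22 held 732 to 1204 counts.

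Libraries held 22296046 to 27367792 counts. Dnmt1, the siRNA's target, had 265 CPM in control and 132 CPM in siDNMT1, a log2 fold change of -1.01 (95% counting interval -1.07 to -0.95). In OB it had 85.4 CPM and in siDNMT1_OB 93.1 CPM, a log2 fold change of 0.13 (0.04 to 0.21), so the library labelled siDNMT1_OB did not have less Dnmt1 RNA than OB. Every direction drawn from that library below carries this limit, and the comparisons that leave it out are siDNMT1 against control and OB against control. Mesenchymal markers were present, since all 9 mesenchymal genes of the list passed the filter with a summed level of 24683 to 31299 CPM. Much of that sum was Col1a1 and Col1a2, at 9643 and 8883 CPM in control. These 9 genes were not used to tell stem cells from other mesenchymal cells. Of these, Pdgfra was past 2-fold higher with induction for both siRNAs (log2 2.47 and 1.56) and Thy1 with the DNMT1 siRNA (1.22), and the part of this in the members' values was not tested. Of 5 osteoblast markers Runx2 alone passed the filter, and Alpl had at most 2 counts in any library, while the summed level of the list was 73.4 to 96.2 CPM. Leukocyte markers, which would mark cells rich in these class I genes, summed to 2.25 to 3.32 CPM, most of it from Cd68, the one gene of that list to pass the filter, with 47 to 62 counts. Csf1r had 6 to 21 counts and Ptprc 2 or fewer, and Adgre1 was at 0 in all 4 libraries. In bulk RNA, fewer cells of a type and less RNA per cell cannot be told apart.

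Levels differed widely between the members. Divided by length (TPM, counts scaled by merged exon length and depth), B2m was the highest in every library, with 1000 TPM in control, 1244 in siDNMT1, then 1679 in OB and 2014 in siDNMT1_OB. Tapbp was second with 54.1 to 103 TPM and Psmb10 the next with 25.3 to 33.0 TPM, and the intervals of these 3 did not overlap in any library. Below them the order depended on the library. In control, H2-D1 (5.21 TPM), Tap2 (5.03) and Tap1 (4.91) had overlapping intervals, whereas in OB Tap2 (21.9) stood above Tap1 (13.0). Psmb8 (0.348 TPM), Nlrc5 (0.436) and Psmb9 (0.636) were at the foot of the order in control with overlapping intervals, and Nlrc5 was the lowest in OB (1.29 TPM).

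**Figure D1:**
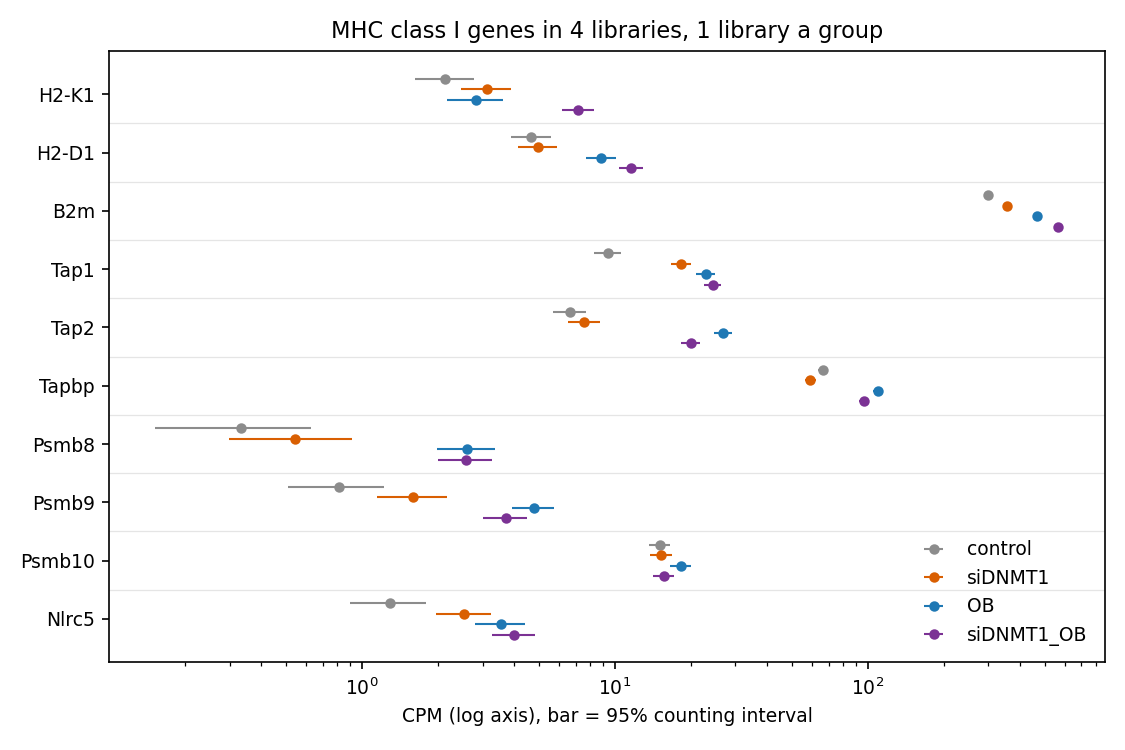
Level of each member in each library, in CPM on a log axis, with points coloured by library and bars for the 95% counting interval, 1 library a group. B2m lies near the right edge at 299.7 to 564 CPM. For H2-D1, B2m, Tap1, Tap2, Tapbp, Psmb8 and Psmb9 both OB-induced points lie right of both uninduced ones with no overlap of the bars. For H2-K1, Psmb10 and Nlrc5 some of these bars overlap.

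After OB induction with the control siRNA, all 10 members were higher than in control, and 5 of them (Tap1, Tap2, Psmb8, Psmb9 and Nlrc5) by at least 2-fold. Psmb8 passed the filter only through the induced libraries, so the filter favoured its place among them. None was lower by that size. Of all 13233 genes, 10.6% were higher by at least 2-fold in this comparison and 7.1% lower. The median log2 fold change was 1.10 over the members and 0.01 over all genes tested, of which 50.7% lay above 0. The counting interval lay above 0 for 9 members and spanned 0 for H2-K1.

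With the DNMT1 siRNA the same induction, siDNMT1_OB against siDNMT1, again had 10 of 10 members above 0, with a median log2 fold change of 0.93 against 0.00 over all genes. Here H2-K1, H2-D1, Tap2, Psmb8 and Psmb9 were higher by at least 2-fold and none lower, in a comparison where 6.83% of all genes were higher and 2.71% lower by that size. This pair of libraries shares none with the pair before it. Members above 0 in both pairs were 10 of 10, against 40.2% of all genes tested, and Tap2, Psmb8 and Psmb9 passed 2-fold in both, as did 5.84% of all genes. Psmb8 was tested only because of the induced libraries, so nothing is drawn from its place here or in the fit that follows. An additive edgeR quasi-likelihood fit over the 4 libraries, which takes the departure from additive siRNA and induction effects as the spread and leaves 1 residual degree of freedom, gave 6 members higher with induction at an adjusted p under 0.05, where 12.0% of all genes were. These were Tap2 (log2 1.71, adjusted p 0.0115), Psmb8 (2.56, 0.0157), Tapbp (0.71, 0.0195), B2m (0.65, 0.0208), H2-D1 (1.07, 0.0246) and Psmb9 (1.84, 0.0339). Tap1 (0.84, 0.0662) and Nlrc5 (1.03, 0.0739), past 2-fold for OB against control, did not reach that adjusted p in the edgeR fit.

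**Figure D2:**
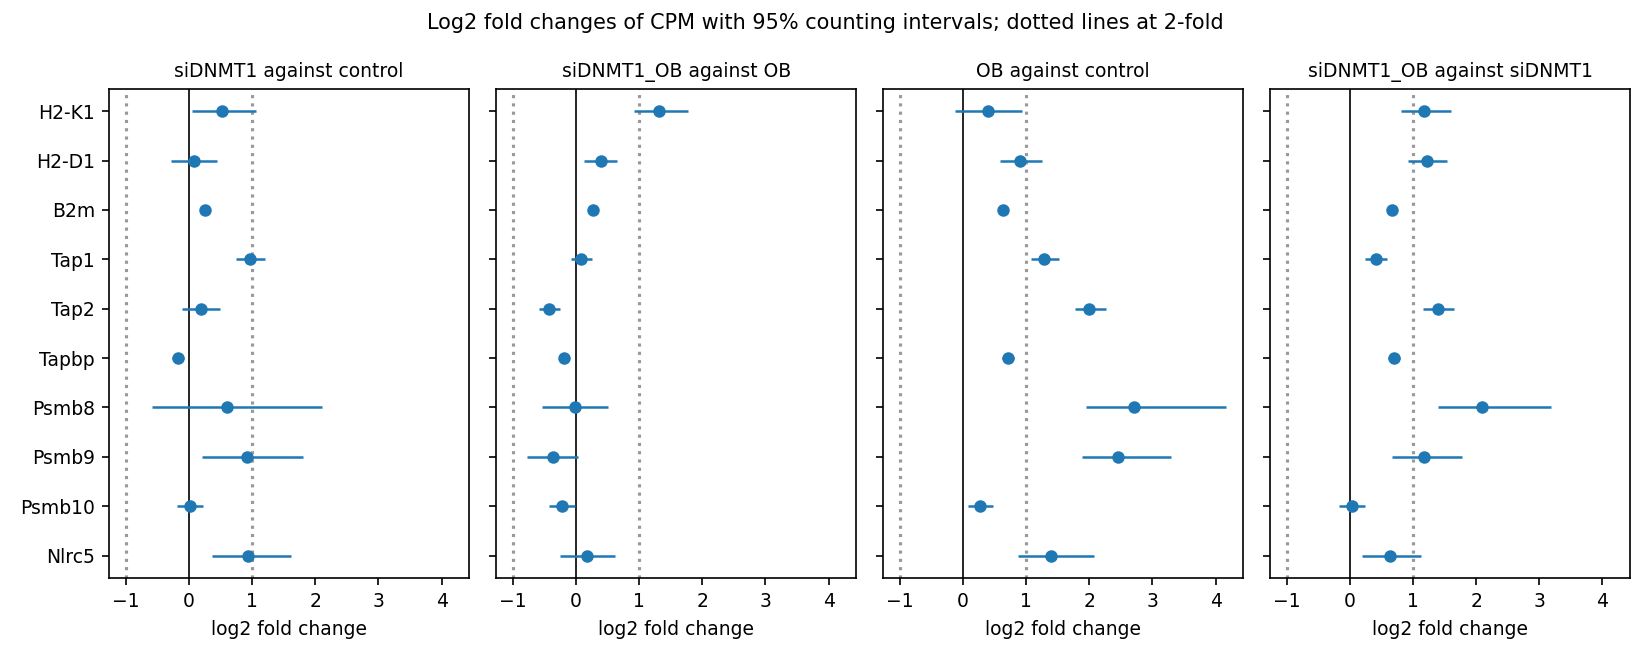
Log2 fold change of each member in the 4 comparisons, 1 panel a comparison, with points for the estimate, bars for the 95% counting interval and dotted lines at 2-fold. In both induction panels all 10 points lie right of 0, and in siDNMT1_OB against OB the point of H2-K1 alone lies beyond 2-fold.

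DNMT1 siRNA in uninduced cells left no member past 2-fold in either direction, in a comparison where 1.97% of all genes were higher and 1.37% lower by that size. Smaller differences lay mostly on 1 side: 9 of 10 members were above 0, with a median log2 fold change of 0.39 against -0.00 over all genes, of which 49.7% were above 0. Over the members with a mean of at least 5 CPM the median was 0.14. Tap1 (0.96), Nlrc5 (0.93), Psmb9 (0.92), H2-K1 (0.53) and B2m (0.25) had counting intervals above 0, and Tapbp (-0.17) below it. This comparison shares the control library with OB against control, so a low count in control would move both. The additive edgeR fit takes both states together, while Dnmt1 RNA was lower with the siRNA in uninduced cells only. It therefore cannot decide whether the members differ with lower Dnmt1. In the additive edgeR fit no member had an adjusted p under 0.05 for the siRNA (0 of 10, lowest adjusted p 0.456), nor had any gene tested (0%), while 1 member, H2-K1, and 1148 genes had an unadjusted p under 0.05.

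Between the 2 induced libraries, where Dnmt1 RNA was not lower with the DNMT1 siRNA, the members went both ways. Comparing siDNMT1_OB with OB, H2-K1 was the only member past 2-fold, and 2.36% of all genes were higher and 1.37% lower by that size. The members' median log2 fold change was 0.04, against 0.01 over all genes, with 5 members above 0. The counting intervals of H2-K1, H2-D1 and B2m, the chains of the class I molecule, lay above 0, those of Tap2, Tapbp and Psmb10 below 0, and the other 4 spanned 0. Without H2-K1 and H2-D1 no member passed 2-fold and the median was -0.10.

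Among the chains, H2-K1 had 58 counts (2.14 CPM) in control, 80 (3.12 CPM) in siDNMT1, then 64 (2.83 CPM) in OB and 192 (7.17 CPM) in siDNMT1_OB. The siDNMT1_OB library thus stood apart and the other 3 lay close together. Its log2 fold change was 1.32 (0.93 to 1.77) against OB and 1.18 (0.82 to 1.60) against siDNMT1, and 0.53 (0.04 to 1.06) for siDNMT1 against control. H2-D1, the second heavy chain, had 127, 127, 200 and 311 counts in the same order of libraries, or 4.68, 4.96, 8.84 and 11.6 CPM. It was level between both uninduced libraries and higher in both induced ones, with log2 fold changes of 0.91 (0.59 to 1.25) for OB against control and 1.22 (0.93 to 1.54) for siDNMT1_OB against siDNMT1.

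B2m, the light chain that every class I heavy chain needs, was the member with the most counts, 8129 in control, 9115 in siDNMT1, then 10564 in OB and 15095 in siDNMT1_OB. Its CPM stepped up in that order, 299.7, 356, 467 and 564. The log2 fold change with induction was 0.64 (0.60 to 0.68) with the control siRNA and 0.66 (0.63 to 0.70) with the DNMT1 siRNA, and with the DNMT1 siRNA 0.25 (0.20 to 0.29) before and 0.27 (0.24 to 0.31) after induction. Per length, H2-K1 equalled 0.235% of B2m in control and 0.419% in siDNMT1_OB, and H2-D1 0.521% and 0.687%. Taken singly, H2-K1 and H2-D1 were thus each under 1% of B2m per length in every library.

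Tap1 and Tap2 together form the peptide transporter, and control was the lowest library for both. Tap1 had 254 counts (9.36 CPM) in control, 470 (18.3 CPM) in siDNMT1, then 519 (22.9 CPM) in OB and 653 (24.4 CPM) in siDNMT1_OB. Control was low and the other 3 libraries lay closer together. Its log2 fold change was 0.96 (0.75 to 1.2) for siDNMT1 against control, just under 2-fold, and 0.09 (-0.08 to 0.26) for siDNMT1_OB against OB. Tap2 had 180, 194, 605 and 535 counts, or 6.64, 7.57, 26.8 and 19.99 CPM. Both uninduced libraries were low and both induced ones high, at log2 fold changes of 2.00 (1.77 to 2.26) for OB against control and 1.39 (1.16 to 1.65) for siDNMT1_OB against siDNMT1. Between the induced libraries, Tap2 was lower in siDNMT1_OB by a log2 fold change of -0.42 (-0.59 to -0.25).

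Tapbp, which encodes the tapasin that bridges class I and the transporter, had 1810, 1519, 2476 and 2577 counts, or 66.7, 59.3, 109 and 96.3 CPM in control, siDNMT1, OB and siDNMT1_OB. It was the member lower with the DNMT1 siRNA in both states, by log2 fold changes of -0.17 (-0.27 to -0.07) and -0.18 (-0.27 to -0.10). With induction it was higher, at 0.71 (0.63 to 0.80) and 0.70 (0.61 to 0.79).

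The immunoproteasome subunits held the largest and the smallest induction differences of the 10 members. Psmb8 had 9 counts (0.332 CPM) in control, 14 (0.546 CPM) in siDNMT1, then 59 (2.61 CPM) in OB and 69 (2.58 CPM) in siDNMT1_OB. The uninduced and induced libraries did not overlap in their intervals, and the log2 fold change was 2.71 (1.95 to 4.17) for OB against control and 2.09 (1.40 to 3.18) for siDNMT1_OB against siDNMT1. Psmb9 had 22, 41, 108 and 99 counts, or 0.811, 1.60, 4.78 and 3.70 CPM. It was lowest in control and highest in OB, with a log2 fold change of 2.45 (1.89 to 3.29) between them and of 0.92 (0.20 to 1.80) for siDNMT1 against control. Psmb10, which had 408, 391, 412 and 418 counts (15.0, 15.3, 18.2 and 15.6 CPM), was nearly flat. Its log2 fold change for OB against control was 0.28 (0.08 to 0.48), and for siDNMT1_OB against siDNMT1 0.03 (-0.17 to 0.24).

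Each immunoproteasome subunit was also set against the constitutive subunit whose place it takes, as a share of their summed counts per length within 1 library, a measure that needs no scaling between libraries. Psmb8 made up 0.141% of Psmb8 plus Psmb5 in control, 0.257% in siDNMT1, then 1.47% in OB and 1.34% in siDNMT1_OB. Psmb9 made up 0.340%, 0.798%, 2.82% and 2.06% of Psmb9 plus Psmb6, and Psmb10 19.4%, 21.9%, 27.2% and 23.1% of Psmb10 plus Psmb7. By point value all 3 shares were highest in OB and lowest in control, and the constitutive RNA was the larger part in every library. Counting intervals of OB and siDNMT1_OB overlapped for the Psmb8 and Psmb9 shares, and those of control and siDNMT1 for the Psmb8 and Psmb10 shares. These shares depend on the division by length, without which those in OB were 4.35% for Psmb8, 5.37% for Psmb9 and 15.7% for Psmb10. Over all 3 pairs the share was 4.66% in control, 5.53% in siDNMT1, then 8.61% in OB and 7.0% in siDNMT1_OB. The constitutive subunits were themselves lower in OB than in control, with log2 fold changes of -0.43 for Psmb5, -0.53 for Psmb6 and -0.35 for Psmb7. The row of Psmb7 overlaps Nek6 on the opposite strand by 6571 bases, and Nek6 held 1305 to 1963 counts.

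**Figure D3:**
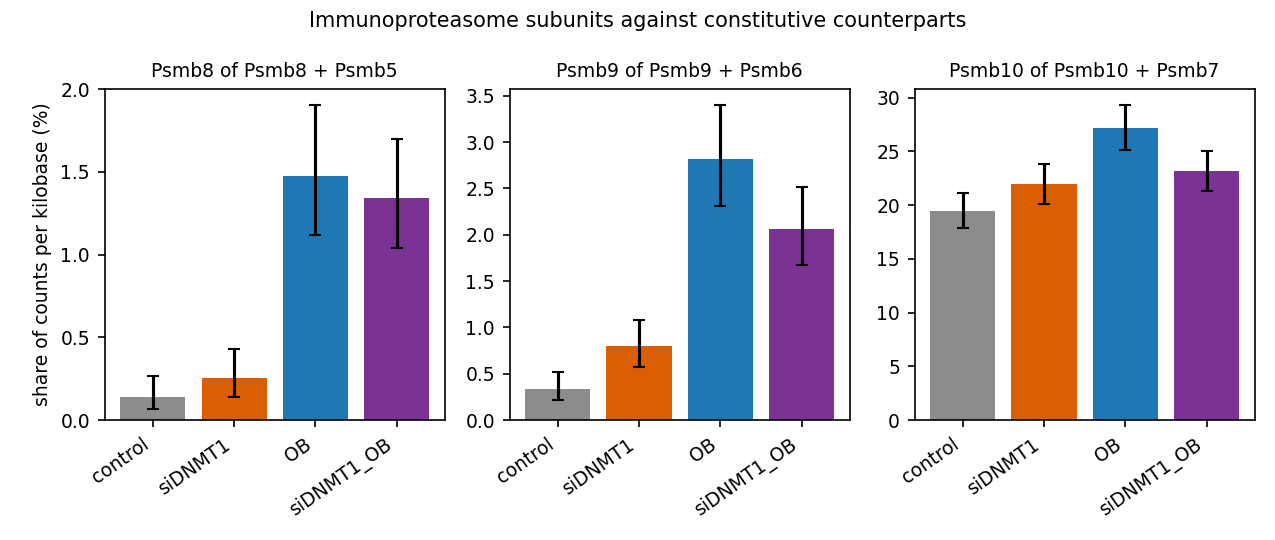
Share of each immunoproteasome subunit in its pair with the constitutive subunit it replaces, as a percentage of counts per kilobase, 1 bar a library with its 95% counting interval and a separate axis for each pair. Psmb8 and Psmb9 stay under 3% in every library, whereas Psmb10 reaches 27.2% in OB.

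Nlrc5, the transactivator, had 35 counts (1.29 CPM) in control, 65 (2.54 CPM) in siDNMT1, then 80 (3.54 CPM) in OB and 107 (4.0 CPM) in siDNMT1_OB. By point value the libraries stood in the same order as for B2m and Tap1, with control apart from the other 3. Its log2 fold change was 0.93 (0.36 to 1.61) for siDNMT1 against control, 1.40 (0.86 to 2.07) for OB against control and 0.17 (-0.25 to 0.61) for siDNMT1_OB against OB. A noncoding gene inside the Nlrc5 row, 9330175E14Rik, held at most 17 counts.

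The difference between the siRNA effects, that of siDNMT1_OB against OB minus that of siDNMT1 against control, was computed for each member on the log2 scale. It was below 0 for 7 of 10 members, against 49.4% of all genes tested, with a median of -0.42 against 0.00. Psmb9 (-1.28, interval -2.12 to -0.43), Tap1 (-0.88, -1.15 to -0.60), Nlrc5 (-0.76, -1.49 to -0.04) and Tap2 (-0.61, -0.94 to -0.27) were below 0 beyond counting error, and H2-K1 (0.79, 0.15 to 1.42) above. B2m (0.02, -0.03 to 0.08) and H2-D1 (0.31, -0.13 to 0.75) had intervals that spanned 0, and B2m was at -0.02 under total count or upper quartile scaling. With 1 library a group this is a difference between 4 libraries and has no test across conditions.

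**Figure D4:**
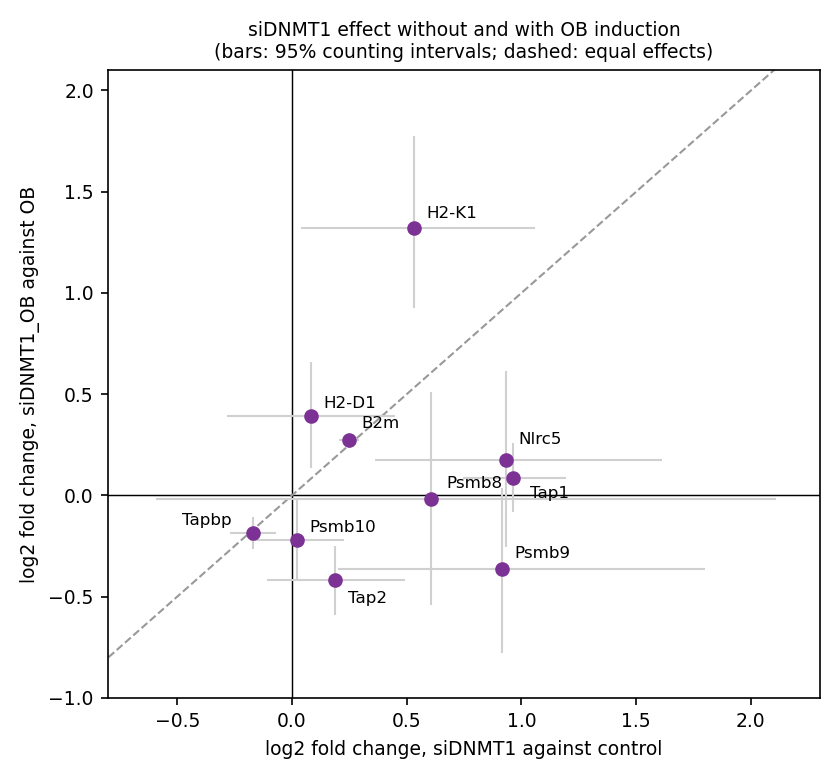
Log2 fold change of each member with the DNMT1 siRNA in uninduced cells (horizontal) and in OB-induced cells (vertical), with grey bars for the 95% counting intervals and a dashed line where both would be equal. H2-K1 lies above the line at 0.53 and 1.32, and Psmb9, Tap1 and Nlrc5 lie near 0.9 on the horizontal axis and near or below 0.2 on the vertical one.

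The pathway reaches beyond the 10 members, and its other proteasome and endoplasmic reticulum genes stayed within 2-fold. None of 3 constitutive catalytic subunits, 12 core subunits and maturation factors, 4 activators or 9 genes of peptide trimming and folding in the endoplasmic reticulum passed 2-fold in any comparison. For OB against control all 12 core and maturation genes and all 3 constitutive subunits were below 0, with medians of -0.47 and -0.43 on the log2 scale. The 9 genes of trimming and folding had medians of -0.08 for siDNMT1 against control (3 above 0) and 0.06 for OB against control (6 above 0), with Pdia3 at -0.42 in the former and Hspa5 at -0.57 in the latter. Erap1, the aminopeptidase that trims peptides in the endoplasmic reticulum, had a log2 fold change of 0.46 (0.31 to 0.62) for siDNMT1 against control and 0.72 (0.57 to 0.87) for OB against control. Psme1, an activator subunit that interferon also induces, had 0.40 (0.29 to 0.50) for OB against control, and its partner Psme2 0.28 (0.19 to 0.36), whereas the other activators, Psme3 and Psme4, had -0.42 (-0.50 to -0.34) and -0.08 (-0.15 to -0.01).

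Other class I and class I-like chains that were tested were, like the members, higher for OB against control. Of 22 listed genes with a row, 10 passed the filter, and all 10 were above 0 for OB against control, with a median log2 fold change of 1.49 and 6 genes past 2-fold (50.7% and 10.6% of all genes tested). H2-T23, which encodes the Qa-1 molecule, had 283, 555, 1464 and 1649 counts in control, siDNMT1, OB and siDNMT1_OB, and log2 fold changes of 1.05 (0.84 to 1.27) for siDNMT1 against control and 2.62 (2.45 to 2.82) for OB against control. Per length it equalled 1.04% of B2m in control and 4.13% in OB, so that it was above H2-K1 and H2-D1 in every library. H2-T24 (2.27), Cd1d1 (1.88), which presents lipids, Hfe (1.79), which takes part in iron balance, H2-M5 (1.55) and Fcgrt (1.43), the neonatal Fc receptor chain, were the others past 2-fold for OB against control. For siDNMT1 against control, H2-T23, Hfe (1.27) and H2-Q4 (1.18) passed 2-fold, as did 1.97% of all genes. Between siDNMT1_OB and OB, 4 of the 10 tested chains were above 0 and 6 below. Their median log2 fold change there was -0.17, against 0.01 over all genes. H2-T24 and Hfe lay under 1 CPM in control.

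H2-Q4 differed more by siRNA label than by induction. It had 46 counts in control, 101 in siDNMT1, then 49 in OB and 137 in siDNMT1_OB, so that both libraries with the DNMT1 siRNA were high. Its log2 fold change was 1.18 (0.70 to 1.75) in uninduced and 1.21 (0.76 to 1.74) in induced cells, and 0.34 (-0.26 to 0.97) for OB against control. H2-Q4 and H2-K1 were thus the class I heavy chains past 2-fold between siDNMT1_OB and OB, and both are open to the exchange of reads between paralogs described above.

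Transcription factors known from class I promoters lay around 0, with a median log2 fold change of -0.01 for siDNMT1 against control and -0.11 for OB against control over 15 tested genes. Irf9, which acts in the interferon response, stood apart. It had 491, 1418, 1518 and 2335 counts, with log2 fold changes of 1.61 (1.46 to 1.76) for siDNMT1 against control, 1.89 (1.74 to 2.04) for OB against control and 0.38 (0.28 to 0.47) for siDNMT1_OB against OB. By point value the libraries were thus ordered as for B2m, Tap1 and Nlrc5, with control lowest and siDNMT1_OB highest. For Tap1 and Nlrc5, however, the counting interval of siDNMT1_OB against OB spanned 0. Stat2 passed 2-fold for OB against control (1.34, 1.26 to 1.43). Irf1 had -0.11 and Rfx5, part of the complex that binds the X box of MHC promoters, 0.44 in that comparison, and Irf8 was at 0 counts in all 4 libraries.

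**Figure D5:**
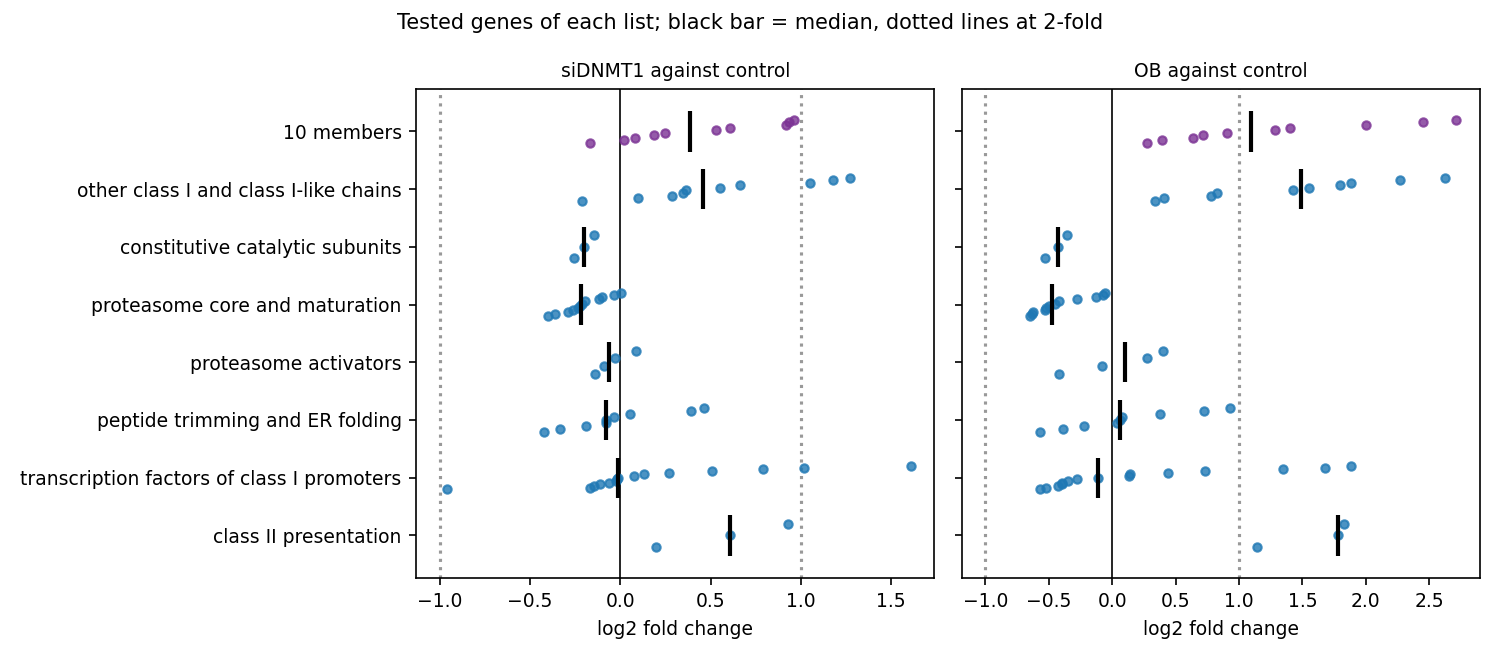
Log2 fold changes of the tested genes of each list for siDNMT1 against control and for OB against control, 1 point a gene, with a black bar at each list's median and dotted lines at 2-fold. The members (median 1.10) and the other class I chains (1.49) lie right of 0 for OB against control, and the proteasome core (-0.47) lies left of it.

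MHC class II genes, which professional antigen-presenting cells use, had few counts. Of the list, 3 of 12 genes passed the filter, H2-DMa, H2-DMb1 and H2-DMb2, which edit peptides on class II molecules, while H2-Ab1, H2-Eb2 and H2-Ob were at 0 in all 4 libraries. For OB against control these 3 had log2 fold changes of 1.82, 1.14 and 1.78, from 73, 20 and 9 counts in control. H2-DMb1 and H2-DMb2 lay under 1 CPM in both uninduced libraries and so passed the filter only through the induced ones. The neighbours of the class I genes on chromosome 17 lay around 0. Of 41 tested genes between H2-K1 and H2-D1 that are on no class I or II list, 5 were past 2-fold higher and 2 lower for OB against control, with a median log2 fold change of 0.05, beside 10.6% and 7.1% of all genes tested. The higher ones were C4b (2.96), Tnxb (2.88), Col11a2 (1.5), Ager (1.28) and Neu1 (1.03), and the lower ones Vars (-1.30) and Lsm2 (-1.26).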

How the data were processed

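Poly(A) RNA of 4 libraries, 1 a group, was analysed. The authors deposited a table of raw counts, whole numbers without normalization, for each gene, with a gene length column. Per the labels and the study's methods, TruSeq libraries were trimmed with Trimmomatic, aligned with HISAT2 to mm10 and counted with featureCounts; versions, strand setting and the handling of multiply mapped reads are not given in the sources used here. Of 54409 gene identifiers shared with GENCODE M21, 98.3% had the same start and end.

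TMM factors (0.991 to 1.01) were computed in edgeR 4.0.16 (R 4.3.3) on genes averaging 1 CPM or more, which hold 99.7% or more of every library's counts. Log2 fold changes of CPM used a prior count of 2, and a gene counted as higher or lower from a log2 fold change of 1 in size, the size part of the study's rule, whose p-value part was not used because a pair of single libraries gives none across conditions. Exact 95% intervals (Clopper-Pearson) were computed from the reads (scipy 1.17.1); they cover counting error only, because the reads carry no molecular identifiers. A floor of 3 counts equals 0.111 to 0.133 CPM. The additive edgeR fit had terms for siRNA and induction over all 4 libraries, with Benjamini-Hochberg adjustment over all genes tested. The fits were tested on simulated data.

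The members and lists were chosen with earlier results of these data known. Named genes are the members, Dnmt1, Psmb5 to Psmb7, list genes with a log2 fold change of 1 in size in any comparison, and the 5 genes nearest in pattern to the members; Erap1, Pdia3, Hspa5, the 4 Psme genes, Irf1, Rfx5 and Zbtb22 and other overlapping genes were named after their values were seen. Alternatives were total count, upper quartile and relative log expression scaling, no filter or a mean CPM of 5, a prior count of 0.5, an added read test, a 1.5-fold threshold, the additive fit, and leaving out H2-K1 and H2-D1.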

Additional observations from a re-analysis of the deposited data

How the results depend on the processing

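Under the 3 other scalings, without a filter, with a prior count of 0.5 and with the read test added, no count of members past 2-fold moved by over 1.5 times. The member medians, which the read test does not touch, kept their direction in the other settings just named. Of the siRNA effect differences, run under the scalings and the prior count, B2m alone changed sign, to -0.02 under total count and upper quartile scaling. Under a filter of 5 CPM on the mean, which leaves fewer members, 0 members were higher by 2-fold for siDNMT1_OB against OB, 2 for OB against control and 2 for siDNMT1_OB against siDNMT1, the median for siDNMT1_OB against OB was -0.057 and that for siDNMT1 against control 0.14. At 1.5-fold, 4 members were higher for siDNMT1 against control (843 of all 13233 genes), 8 for OB against control (2532) and 8 for siDNMT1_OB against siDNMT1 (1860). The additive edgeR fit gave 0 members higher for the siRNA, siDNMT1_OB against OB included, and 4 higher by 2-fold for induction, where OB against control had 5: Tap1 and Nlrc5 were lost and H2-D1 gained. Without H2-K1 and H2-D1, 0 were higher for siDNMT1_OB against OB, with a median of -0.10, and 3 for siDNMT1_OB against siDNMT1. Taken on counts without length, the immunoproteasome share was 9.66% (exact interval 8.92 to 10.4) in OB and 7.87% (7.27 to 8.51) in siDNMT1_OB, and in OB those of Psmb8, Psmb9 and Psmb10 in their own pairs were 4.35%, 5.37% and 15.7%. Of the single members' log2 fold changes, that of B2m for OB against control moved past its counting interval, to 0.69 under upper quartile scaling.

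Over all genes tested, counts past the threshold moved most without a filter, to 1933 higher and 1218 lower for siDNMT1 against control (261 and 181 with it), 1403 and 1865 for siDNMT1_OB against OB (312 and 181), 3975 and 2142 for OB against control (1404 and 940) and 2491 and 1834 for siDNMT1_OB against siDNMT1 (904 and 358). The additive fit called 0 genes for the siRNA, and 952 higher and 549 lower for induction. With 1 library a group, differences between dishes cannot be told apart from differences between conditions, and the cause of a value that moved was not tested. Depth limits Psmb8, Psmb9, H2-K1 and Nlrc5 most, at 9 to 192 counts a library. No paired analysis was possible because the groups share fewer than 2 replicate numbers, and the additive fit is the nearest to one, since it compares the induction within each siRNA.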

Other observations

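The 5 genes whose pattern lay nearest to the member median were sought among 9686 genes outside the list with a mean of at least 10 CPM, by Euclidean distance between log2 CPM centred over the 4 libraries. They were Prss23, a secreted serine protease (distance 0.0726), F3, the tissue factor that starts coagulation (0.0825), Fhl1, a LIM domain protein (0.0928), Igsf3 (0.0944) and Col4a5, a basement membrane collagen chain (0.103). The member median stood at -0.78 in control, -0.32 in siDNMT1, then 0.40 in OB and 0.62 in siDNMT1_OB, and Prss23 had 79.7, 110, 172 and 207 CPM in that order. None of these 5 genes is part of antigen presentation. With 4 libraries and so many candidates some genes will lie near any pattern, and nothing is drawn from the likeness.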
